A study of Mus musculus with 24 samples.

Results

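Stress genes that many tissues switch on within minutes of handling were followed through sorted cells of the mouse gut. They were chosen by name as 10 of the 53465 genes in the count table: 8 immediate early genes (*Fos*, *Fosb*, *Jun*, *Junb*, *Egr1*, *Atf3*, *Ier2* and *Dusp1*) and 2 heat shock genes (*Hspa1a* and *Hspa1b*). The comparisons asked whether their RNA, which is often read as a trace of dissociation or sorting, differed between fluorescent and non-fluorescent cells or between gut regions. All 10 were found in the table, and 9 passed the filter on low counts. *Hspa1a* did not pass and is given by its counts.

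The cells came from Guca2a-Venus mice, whose guanylin promoter drives a fluorescent protein, Venus. The transgene, an artificial chromosome, encodes Venus where *Guca2a* would encode guanylin, and the line goes back to 1 founder. RNA was sequenced from GFP positive and GFP negative epithelial cells of the duodenum, jejunum, ileum and colon, which gave 8 groups of 3 libraries. All groups carried the transgene and passed through chelation with EDTA and shaking, brief trypsin digestion, staining for CD45 and sorting. Dead cells, debris and CD45+ cells were gated out in the sort. The colon, taken whole with the rectum, had a higher EDTA concentration than the small intestine, of which short pieces were taken. Region and these steps therefore cannot be told apart where the colon is compared with the small intestine. The 3 libraries of a group stood for 3 mice, but the labels gave no ages and tied no library to a mouse, so that positive and negative cells of the same animal were not paired. No undissociated tissue was among the samples, so what the handling itself added cannot be told apart from what the cells carried before it.

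Immediate early genes are transcribed from promoters that are already open when growth factors, stretch, injury or heat activate MAP kinases, and they need no new protein synthesis. *Fos* and *Jun* proteins pair to form AP-1, which drives a later wave of genes, while *Dusp1* switches the MAP kinases off again. Heat shock genes of the Hsp70 family answer misfolded protein through heat shock factors. In gut epithelium, which is shed and renewed within days and has to be stripped from its support to be sorted, both groups are commonly used as signs of cell handling.

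RefSeq promoters (GRCm38.p6, from 250 bases before to 50 after the start) were found for 8 of the 10 members, the exceptions being *Egr1* and *Ier2*. Those of *Fos*, *Jun*, *Junb*, *Atf3* and *Dusp1* are shown because these immediate early members were called higher in positive cells of at least 1 region and on the mean of the regions, with capitals at matches to TGACG (or CGTCA), TGACGTCA and TATAAA and, in *Jun*, to GAANNTTC. They lie at chr12:85473640-85473939 (+), chr4:95052173-95052472 (-), chr8:84978699-84978998 (-), chr1:191183284-191183583 (-) and chr17:26508423-26508722 (-).
Fos: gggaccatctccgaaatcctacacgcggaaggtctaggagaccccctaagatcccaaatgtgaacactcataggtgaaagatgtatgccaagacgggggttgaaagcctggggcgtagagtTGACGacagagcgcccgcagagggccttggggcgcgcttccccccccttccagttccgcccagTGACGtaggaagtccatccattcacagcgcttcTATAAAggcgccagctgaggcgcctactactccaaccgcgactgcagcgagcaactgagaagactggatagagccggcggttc
Jun: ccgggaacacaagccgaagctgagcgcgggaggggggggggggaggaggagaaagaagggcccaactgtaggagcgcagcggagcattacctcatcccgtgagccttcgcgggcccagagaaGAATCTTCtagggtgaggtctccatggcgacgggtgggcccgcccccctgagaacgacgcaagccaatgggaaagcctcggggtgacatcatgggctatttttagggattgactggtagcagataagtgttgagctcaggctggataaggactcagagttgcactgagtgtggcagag
Junb: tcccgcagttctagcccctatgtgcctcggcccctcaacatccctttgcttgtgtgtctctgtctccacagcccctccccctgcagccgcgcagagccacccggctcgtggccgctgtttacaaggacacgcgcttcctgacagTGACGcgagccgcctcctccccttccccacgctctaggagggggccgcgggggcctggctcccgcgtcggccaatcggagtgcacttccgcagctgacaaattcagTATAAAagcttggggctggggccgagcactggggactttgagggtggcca
Atf3: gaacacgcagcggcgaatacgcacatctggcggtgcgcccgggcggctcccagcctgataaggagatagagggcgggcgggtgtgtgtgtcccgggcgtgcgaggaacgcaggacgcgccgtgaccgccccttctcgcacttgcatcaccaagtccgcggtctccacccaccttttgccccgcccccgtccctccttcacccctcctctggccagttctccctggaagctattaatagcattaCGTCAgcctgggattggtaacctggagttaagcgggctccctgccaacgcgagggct
Dusp1: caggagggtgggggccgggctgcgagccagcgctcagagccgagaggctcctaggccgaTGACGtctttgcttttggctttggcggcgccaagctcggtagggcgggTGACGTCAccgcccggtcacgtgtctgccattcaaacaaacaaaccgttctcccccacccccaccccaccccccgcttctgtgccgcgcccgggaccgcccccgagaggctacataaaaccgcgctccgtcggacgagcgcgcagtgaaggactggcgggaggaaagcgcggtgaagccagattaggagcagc
The letters TGACG, the core of sites bound by CREB and ATF factors, were present on either strand in 5 of the 8 member promoters (*Fos*, *Fosb*, *Junb*, *Atf3* and *Dusp1*) and in 20.8% of 32851 promoters of the same length. The palindrome TGACGTCA, which holds TGACG on both strands, was present at -143 in *Dusp1* alone among the members and in 1.79% of promoters. TATAAA was found at -33 in *Fos* and at +1 of the RefSeq start in *Junb*, and in 13.6% of promoters. That *Junb* start lies 30 bases upstream of the annotated gene start, so the match lies upstream of the annotated start. The CArG box, bound by serum response factor, and TGANTCA, bound by AP-1, had no match in the 8 windows, against 1.63% and 7.81% of promoters. The *Atf3* and *Dusp1* windows belong to RefSeq starts that lie inside the annotated genes.

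The promoters of the heat shock pair are shown because they are near copies, as are the genes, which limits how their reads can be assigned. They lie at chr17:34972107-34972406 (-) for *Hspa1a* and chr17:34959189-34959488 (-) for *Hspa1b*, and capitals mark the 4 of 300 bases that differ.
Hspa1a: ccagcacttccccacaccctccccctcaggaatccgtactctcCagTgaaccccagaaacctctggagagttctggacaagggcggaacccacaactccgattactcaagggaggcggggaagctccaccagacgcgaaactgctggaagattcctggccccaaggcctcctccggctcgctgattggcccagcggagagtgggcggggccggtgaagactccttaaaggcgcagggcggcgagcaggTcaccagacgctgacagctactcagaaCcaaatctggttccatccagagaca
Hspa1b: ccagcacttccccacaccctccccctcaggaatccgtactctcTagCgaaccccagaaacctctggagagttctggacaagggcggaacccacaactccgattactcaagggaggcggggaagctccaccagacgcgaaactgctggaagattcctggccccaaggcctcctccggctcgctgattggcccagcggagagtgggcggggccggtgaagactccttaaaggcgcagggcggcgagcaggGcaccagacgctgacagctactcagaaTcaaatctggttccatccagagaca
Both hold 1 match at -104 to GAANNTTC (TTCNNGAA was searched as well), the paired core of a heat shock element, which 15.1% of promoters had and which was also found in *Jun*. The longer heat shock element of 3 alternating units had no match in the 8 windows, against 0.603% of promoters. Their coding sequences, of 1923 bases in *Hspa1a* and 1926 in *Hspa1b*, differed at 8 bases outside a gap, an identity of 99.6%. Of the 50-base windows of the *Hspa1a* transcripts 58.8% also occurred in *Hspa1b*, and of those of *Hspa1b* 62.3% also occurred in *Hspa1a*. Reads of 50 bases from these windows match both genes, so counts of this pair rest on the remaining windows. The 8 immediate early members had 0% of windows in common with another gene on their own strand.

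In the genome build GRCm38 (GENCODE M21 annotation) *Fos* lies at chr12:85473890-85477273 (+), *Fosb* at chr7:19302696-19310051 (-), *Jun* at chr4:95049034-95052222 (-) and *Junb* at chr8:84974484-84978718 (-). *Egr1* lies at chr18:34859823-34864984 (+), *Atf3* at chr1:191170296-191218039 (-), *Ier2* at chr8:84661331-84662852 (-) and *Dusp1* at chr17:26505590-26562128 (-). The heat shock pair are neighbours, *Hspa1a* at chr17:34969190-34972156 (-) and *Hspa1b* at chr17:34956436-34959238 (-).

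The libraries held 7458616 to 23063124 counts on genes, with mitochondrial genes at 32.3% to 80.7% of them. Over 24 pairs of replicates the chi-square per degree of freedom was 26.5 to 177, above counting error. *Guca2a*, whose promoter marked the cells, had higher mean CPM (read counts relative to library size, scaled by edgeR's TMM factors) in positive than in negative cells of each region, from 153 against 24.5 in the jejunum to 612 against 94.8 in the colon. All 6 epithelial markers were detected in every group, at 1050 to 5262 summed CPM, while 10 immune markers summed to at most 14.8 CPM and 7 stromal markers to at most 27.0 CPM. Markers of epithelial subtypes moved with the sort: all 7 goblet markers were higher in positive cells of every region, and 2, 9, 9 and 4 of 9 enterocyte and 6, 6, 6 and 0 of 6 Paneth cell markers were higher in the duodenum, jejunum, ileum and colon. Of 6 stem and proliferation markers 2, 6, 6 and 3 were lower, of 8 enteroendocrine markers 8, 8, 7 and 5, and of 4 tested tuft cell markers 3, 4, 4 and 0. Colonocyte markers were higher for 0, 1, 4 and 5 of 5, with 2 lower in the duodenum and 1 in the jejunum. On the mean of the regions 5 of 6 general epithelial markers were higher, and 4 of 6 tested stromal markers were lower, the list of 7 summing to 3.91 to 27.0 CPM in negative cells and at most 2.84 in positive ones. Their part in the differences given here was not tested, and in bulk samples fewer cells of a type and less RNA per cell cannot be told apart.

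Jejunum libraries stood apart from each other in the genes studied here. The libraries numbered 3 were the lowest of their group for 8 of 8 immediate early members in both sorts, with a mean log2 deviation from the group mean of -0.87 in positive and -1.05 in negative cells. The negative library numbered 2 was the highest of its group for 8 of 8, at 0.80. The pair numbered 3 shared an i5 index that the other jejunum libraries did not carry. The numbers follow accession order, which the labels tie to no mouse, so they were not used to pair libraries. They did go with the makeup of the reads, as the multimapping share was lowest in the library numbered 2 in 8 of 8 groups and the mitochondrial share was lowest in that numbered 3 in 7 of 8. Where leaving out the jejunum pair numbered 3, an alternative chosen after the data were seen, changed a call of a member, this is stated.

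**Figure D1:**
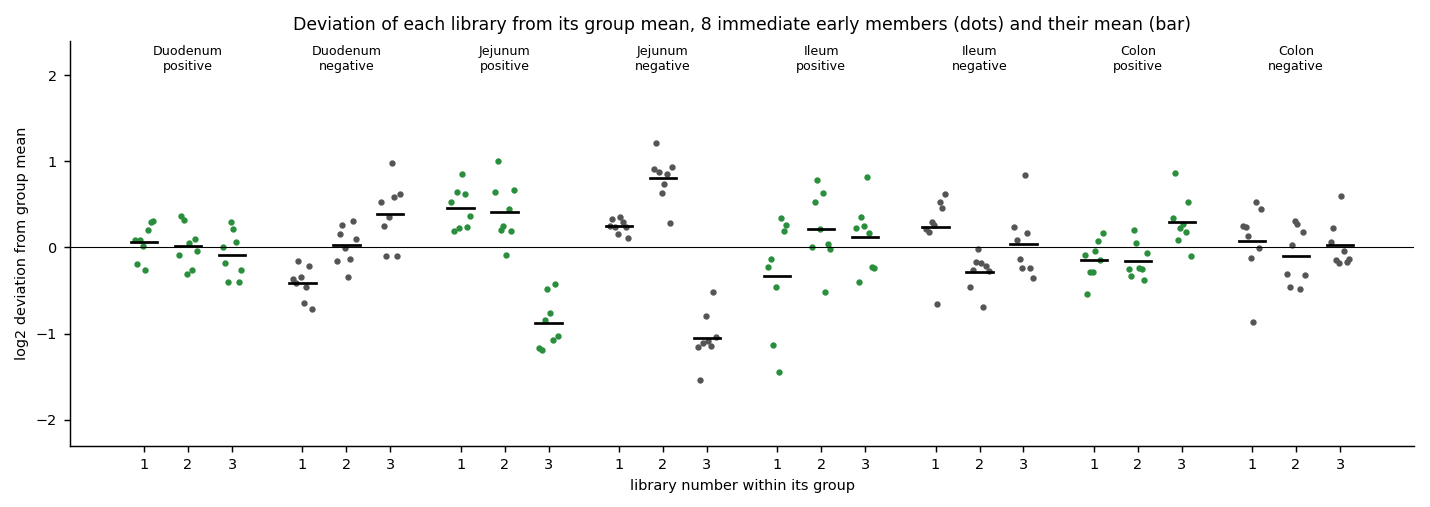
Log2 deviation of each library from the mean of its group for the 8 immediate early members (dots, green for positive and grey for negative cells) and their mean (black bar), by library number within the group. The jejunum libraries numbered 3 lie below 0 for all 8 members in both sorts, with means of -0.87 and -1.05.

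Per length of exon, *Jun* was the highest of the members, with a mean over 24 libraries of 41.6 CPM per kb, followed by *Fos* at 27.2, *Ier2* at 20.8 and *Junb* at 15.8. *Egr1* (6.99), *Atf3* (5.60), *Fosb* (4.28) and *Dusp1* (2.95) were lower. The heat shock pair lay far below these, with *Hspa1b* at 0.194 and *Hspa1a* at 0.0817 CPM per kb. In CPM, *Jun* ranged from 34.4 to 343 (median 119) and *Fos* from 14.2 to 202 (median 56.8), and both had their lowest library in negative and their highest in positive cells of the jejunum. As a ratio of the highest to the lowest library, *Atf3* varied most among the 8 immediate early genes, from 1.07 to 52.7 CPM, and *Ier2* least, from 14.7 to 52.8. Every immediate early member was thus detected in all 24 libraries, and the 8 together summed to 101 to 775 CPM.

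**Figure D2:**
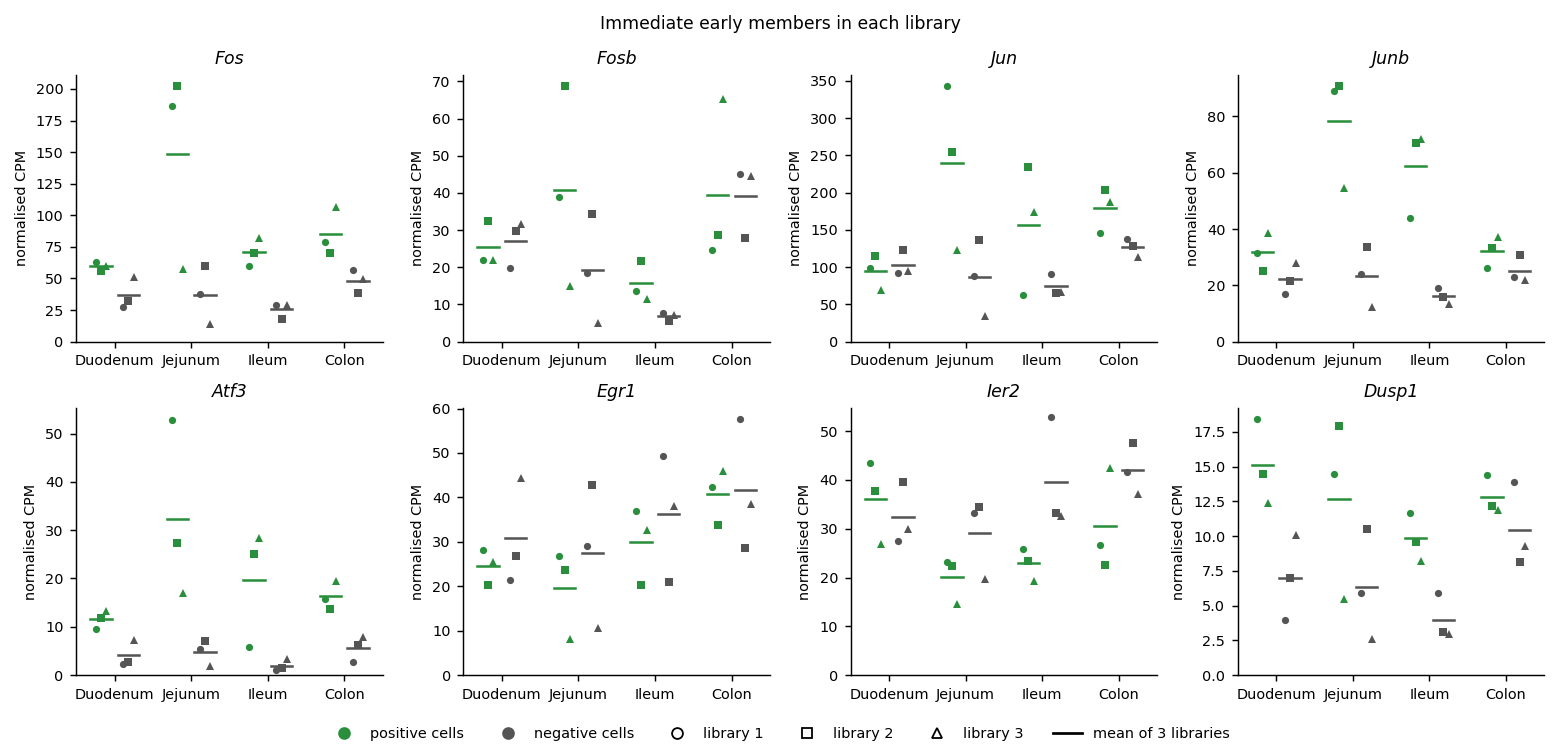
Normalised CPM of the 8 immediate early members in each library (green, positive; grey, negative; symbols give the library number) by region, with the mean of 3 libraries as a line; each panel has its own axis from 0. *Atf3* is higher in every positive than in every negative library of the same region, while *Egr1* overlaps in all 4.

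Positive and negative cells were compared with edgeR's quasi-likelihood test, with p-values adjusted by Benjamini-Hochberg over all 15044 genes that passed the filter and called below 0.05. Averaged over the 4 regions, positive cells had more RNA of 7 of the 9 tested members and less of 1. *Atf3* (log2 fold change 2.28 ± 0.27 SE, edgeR adjusted p = 3.62e-08), *Fos* (1.25 ± 0.20, 3.54e-06), *Junb* (1.14 ± 0.16, 3.37e-07), *Dusp1* (0.93 ± 0.22, 0.000578), *Jun* (0.73 ± 0.20, 0.00299), *Fosb* (0.55 ± 0.24, 0.0481) and *Hspa1b* (1.76 ± 0.68, 0.0269) were higher. *Ier2* was lower (-0.41 ± 0.15, 0.0180), and *Egr1* did not pass (-0.28 ± 0.21, 0.258). Of all 15044 genes tested 25.0% were higher and 32.9% lower in this comparison. *Hspa1b* passed the filter on low counts mainly through positive libraries of the ileum and colon. The median log2 fold change of the 8 immediate early members was 0.83, against -0.21 over all genes.

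Region by region, the count of members called higher was 4 of 9 for the jejunum, 6 for the ileum and 0 for both duodenum and colon. The ileum count includes *Hspa1b*, which passed the filter mainly through positive libraries of the ileum and colon. The ileum count ranged from 3 (without negative library 3) to 7 when 1 library was left out. Of all genes 8.88% were higher in the duodenum, with 18.3%, 17.9% and 9.31% for jejunum, ileum and colon. One member, *Ier2* in the ileum, was lower, against 8.08%, 25.6%, 20.6% and 3.80% of all genes. In the duodenum and in the colon 2 members each were higher at an unadjusted p below 0.05 (*Atf3* and *Dusp1*, and *Fos* and *Atf3*), and DESeq2 called 1 member in each. Without the jejunum pair numbered 3, which enters the shared estimate of spread, 2 members passed in the duodenum (*Atf3* and *Dusp1*) and 2 in the colon (*Fos* and *Atf3*), and 4 again in the jejunum. The median log2 fold change of the 8 immediate early members was 0.34, 1.28, 1.25 and 0.33 in the duodenum, jejunum, ileum and colon, against -0.16, -0.28, -0.27 and 0 over all genes. In summed CPM the 8 genes were at 299 ± 26.5 (SD) in positive cells of the duodenum against 264 ± 45.8 in negative ones, and at 592 ± 260 and 234 ± 129 in the jejunum. They were at 388 ± 113 and 204 ± 46.6 in the ileum, and at 437 ± 72.7 and 339 ± 34.4 in the colon.

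The groups could also be set side by side without a model. The positive libraries of a region all exceeded its negative libraries for 3 of the 8 immediate early members in the duodenum, 2 for the jejunum, 5 for the ileum and 3 for the colon. Over all genes this held for 16.2%, 22.6%, 23.2% and 19.1%. The reverse held for 1 of the 8 (*Ier2*) in the ileum and for none elsewhere, against 21.0%, 29.9%, 30.1% and 11.9% of all genes.

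**Figure D3:**
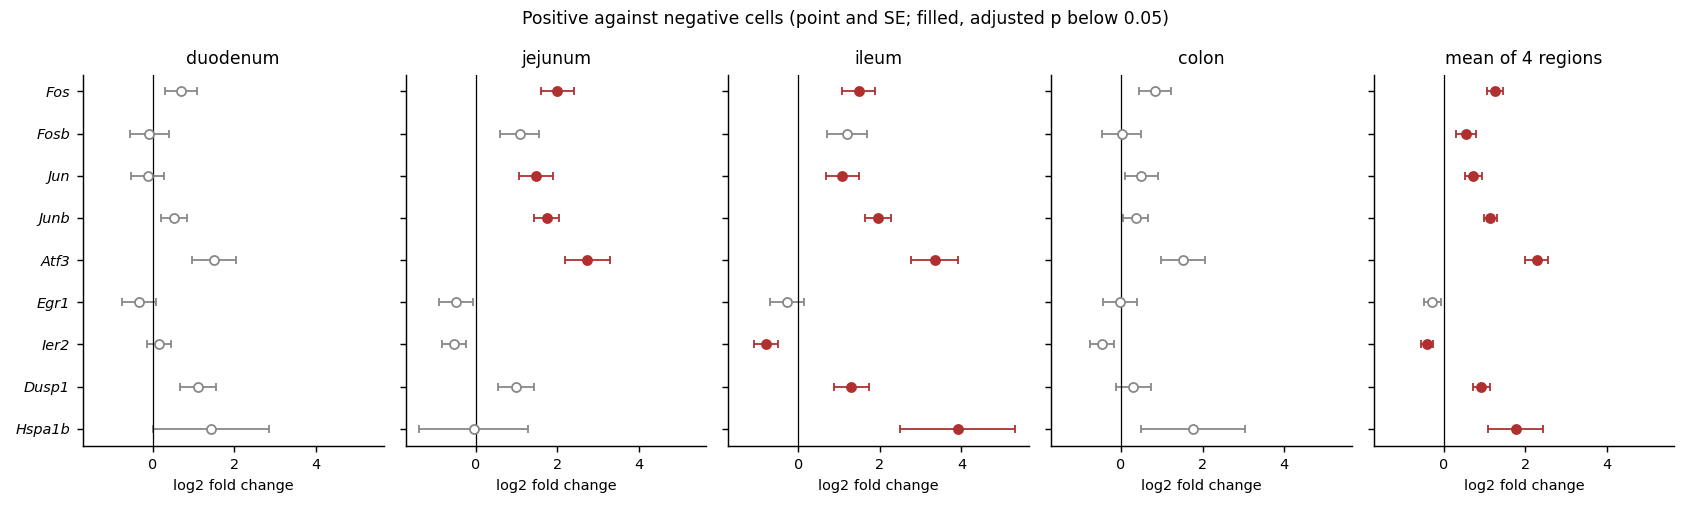
Log2 fold change of positive against negative cells (edgeR, point with SE) for the 9 tested members in each region and as the mean of 4 regions; filled points had an adjusted p below 0.05. *Atf3* is the farthest to the right of the immediate early members in every panel, and no point is filled in the duodenum or the colon.

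*Atf3*, a stress-induced member of the ATF/CREB family that pairs with *Jun* proteins, had the largest differences among the immediate early members. In the duodenum its CPM was 9.53, 11.8 and 13.3 in positive and 2.24, 2.79 and 7.21 in negative cells. In the jejunum it was 52.7, 27.4 and 17.1 against 5.46, 7.14 and 1.94. The groups of both regions were separate, and negative library 3 of the duodenum lay closest to the positive cells. In the ileum *Atf3* was at 5.81, 25.0 and 28.5 CPM in positive and 1.07, 1.55 and 3.27 in negative cells, and in the colon at 15.7, 13.7 and 19.6 against 2.76, 6.23 and 7.82. *Atf3* was the one member whose positive libraries lay above the negative ones in all 4 regions. The fold was 6.69 in the jejunum (log2 2.74 ± 0.55, edgeR adjusted p = 0.000177) and 10.2 in the ileum (3.34 ± 0.57, 3.25e-05). It missed the threshold in the duodenum (1.501 ± 0.54, 0.0543) and in the colon (1.53 ± 0.54, 0.0569), where leaving out 1 library gave a call in 8 and in 6 of the 24 cases.

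*Fos*, the leading partner of *Jun* in AP-1, was at 63.1, 55.8 and 59.8 CPM in positive cells and 27.5, 31.8 and 51.4 in negative ones of the duodenum. In the jejunum it was at 186, 202 and 57.2 against 37.5, 59.6 and 14.2. Positive library 3 of the jejunum was thus below negative library 2, while the other positive libraries lay far above all negative ones. In the ileum *Fos* was at 60.2, 70.5 and 81.9 against 28.9, 18.1 and 29.3 CPM, and in the colon at 78.9, 70.5 and 107 against 56.4, 38.4 and 49.9. Outside the jejunum no positive library fell to the level of a negative one. The fold was 4.01 in the jejunum (log2 2.003 ± 0.40, edgeR adjusted p = 0.000184) and 2.79 in the ileum (1.48 ± 0.40, 0.00393), with no call in the duodenum (0.69 ± 0.39, 0.234) or the colon (0.82 ± 0.39, 0.175). Without the jejunum pair numbered 3 the jejunum value was again 2.0 and *Fos* passed in the colon as well (adjusted p = 0.0418).

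*Junb*, a *Jun* relative that can replace *Jun* in AP-1 dimers, was at 31.6, 25.2 and 38.5 CPM in positive cells and 17, 21.7 and 27.8 in negative ones of the duodenum. In the jejunum it was at 89.1, 91.0 and 54.7 against 24.1, 33.7 and 12.5. In the ileum it was at 44.0, 70.7 and 72.0 against 19.0, 15.7 and 13.5. The groups were separate in the jejunum and the ileum and overlapped in the duodenum. In the colon they overlapped too, at 26.2, 33.1 and 37.3 against 22.9, 30.7 and 21.9 CPM. *Junb* was 3.34-fold higher in the jejunum (log2 1.74 ± 0.32, edgeR adjusted p = 5.35e-05) and 3.87-fold higher in the ileum (1.95 ± 0.32, 1.77e-05). The values in the duodenum (0.52 ± 0.31, 0.261) and the colon (0.36 ± 0.31, 0.503) did not pass. *Prdx2* overlaps *Junb* on the opposite strand, and the strand setting of the counting is not given in the sources used here.

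*Jun* was at 98.4, 115 and 69.8 CPM in positive cells and 91.8, 123 and 95.2 in negative ones of the duodenum, and at 343, 254 and 123 against 88.3, 137 and 34.4 in the jejunum. In the ileum it was at 62.0, 235 and 173 against 90.3, 65.4 and 66.9. Positive library 1 of the ileum lay below all negative libraries, while the other positive libraries lay well above them. In the colon *Jun* was at 146, 204 and 188 against 138, 129 and 114 CPM, without overlap. It was higher in the jejunum (log2 1.47 ± 0.41, edgeR adjusted p = 0.00470) and in the ileum (1.08 ± 0.41, 0.0374). The ileum call was lost without positive library 2 or 3 or negative library 2 or 3 (0.66 to 1.01, adjusted p 0.0991 to 0.258), and *Jun* did not pass in the duodenum (-0.13 ± 0.41, 0.868) or the colon (0.50 ± 0.41, 0.471).

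*Fosb*, a *Fos* relative, was called higher in positive cells on the mean of the regions and in no single region. Its CPM was 38.9, 68.7 and 14.9 against 18.5, 34.3 and 4.96 in the jejunum and 13.7, 21.8 and 11.4 against 7.71, 5.64 and 7.21 in the ileum. In the duodenum it was at 21.9, 32.3 and 22.1 against 19.9, 29.6 and 31.5, and in the colon at 24.7, 28.6 and 65.3 against 45.2, 27.8 and 44.6. Only the ileum groups were separate. In the jejunum each positive library was above the negative library of the same number, which did not hold in the duodenum or the colon. A fit blocked by number was not run. The log2 fold change was 1.09 ± 0.48 (edgeR adjusted p = 0.0659) in the jejunum, 1.19 ± 0.49 (0.0525) in the ileum, -0.085 ± 0.48 (0.926) for the duodenum and 0.016 ± 0.47 (0.993) in the colon. The call on the mean was lost without any one of 12 of the 24 libraries (0.41 to 0.57, adjusted p 0.0535 to 0.136). A call was gained in the ileum without any one of 8 libraries (adjusted p 0.0233 to 0.0499) or without the jejunum pair numbered 3 (0.0082), and in the jejunum without its positive library 3 or its negative library 2 (1.48 to 1.81, 0.00638 to 0.0107).

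*Dusp1*, the phosphatase that inactivates MAP kinases, was at 18.4, 14.4 and 12.4 CPM in positive cells and 3.93, 7.0 and 10.1 in negative ones of the duodenum. In the ileum it was at 11.7, 9.61 and 8.24 against 5.90, 3.10 and 2.94. Both regions showed separate groups. In the jejunum *Dusp1* was at 14.5, 18 and 5.47 against 5.92, 10.6 and 2.60 CPM, and in the colon at 14.4, 12.2 and 11.9 against 13.9, 8.13 and 9.27. These groups overlapped, although each positive library was above the negative library of the same number. The ileum difference passed (log2 1.30 ± 0.44, edgeR adjusted p = 0.0193) but not without positive library 1 or negative library 2 or 3 (1.13 to 1.16, 0.0616 to 0.0837). The values in the duodenum (1.11 ± 0.44, 0.0784), the jejunum (0.995 ± 0.43, 0.0637) and the colon (0.30 ± 0.43, 0.712) did not pass. A call was gained in the jejunum without its positive library 3 or its negative library 2 (1.35 to 1.58, 0.00986 to 0.0128) and in the duodenum without the jejunum pair numbered 3 (0.0312).

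*Egr1*, a zinc finger factor that is induced beside *Fos* in many cells, did not share its difference between sorts. It was at 28.1, 20.2 and 25.4 CPM in positive cells and 21.4, 26.8 and 44.3 in negative ones of the duodenum, and at 26.8, 23.8 and 8.17 against 29.0, 42.8 and 10.6 in the jejunum. In the ileum it was at 36.9, 20.2 and 32.7 against 49.3, 21 and 38.1, and in the colon at 42.4, 33.8 and 45.8 against 57.6, 28.5 and 38.6. The groups overlapped in every region. The log2 fold change lay between -0.48 ± 0.42 in the jejunum (95% interval -1.34 to 0.37) and -0.029 ± 0.41 in the colon (-0.88 to 0.82), with edgeR adjusted p-values of 0.362 and 0.980.

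*Ier2*, a small nuclear immediate early protein, was the one member called lower in positive cells. In the ileum it was at 25.9, 23.4 and 19.3 CPM in positive and 52.8, 33.3 and 32.5 in negative cells, without overlap (log2 -0.79 ± 0.29, edgeR adjusted p = 0.0330). It was at 23.1, 22.4 and 14.7 against 33.2, 34.4 and 19.7 in the jejunum (-0.54 ± 0.29, 0.139). Positive library 3 of the jejunum was again the lowest of its group, as for the other immediate early members. In the colon *Ier2* was at 26.7, 22.7 and 42.5 against 41.7, 47.5 and 37.2 (-0.46 ± 0.29, 0.331), and in the duodenum at 43.5, 37.8 and 26.8 against 27.6, 39.6 and 29.8 (0.16 ± 0.29, 0.757). The ileum call was lost with mitochondrial genes left out, with no filter, and without positive library 2 or 3 or negative library 1 (for these -0.81 to -0.53, adjusted p 0.0751 to 0.204). The call on the mean of the regions was lost with no filter. It was also lost when libraries were scaled by size alone (-0.23, 0.248) or without positive library 2 of the colon (-0.34, 0.0570).

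*Hspa1a* and *Hspa1b*, the inducible Hsp70 chaperones, were close to the limit of detection, so that their deposited counts are given. Of their windows of 50 bases 24.1% and 17.6% also occur in transcripts on the opposite strand, where Gm20481 overlaps *Hspa1a*, and the strand setting of the counting is not given in the sources used here. *Hspa1b* had 15, 27 and 20 counts in positive cells and 2, 4 and 0 in negative ones of the ileum. It had 21, 41 and 6 against 0, 12 and 6 in the colon. It had 6, 2 and 2 against 0, 0 and 5 in the duodenum, and 0, 6 and 4 against 1, 6 and 3 in the jejunum. Only in the ileum were the groups separate, and there *Hspa1b* was higher in positive cells (log2 3.91 ± 1.41, edgeR adjusted p = 0.0285). That call was lost without positive library 2 or 3 or negative library 1 or 3 (3.43 to 3.94, adjusted p 0.0612 to 0.104). The other regions gave 1.43 ± 1.42 (0.528) in the duodenum, -0.046 ± 1.34 (0.987) in the jejunum and 1.76 ± 1.28 (0.408) in the colon, and the call on the mean was lost without the jejunum pair numbered 3 (1.66, adjusted p = 0.0598), without positive library 1 of the duodenum or without positive library 2 of the colon (1.57 to 1.62, 0.0618 to 0.0628).

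*Hspa1a* had 8, 18 and 4 counts in positive cells and 0, 8 and 0 in negative ones of the colon, and 3, 0 and 7 against 0, 0 and 0 in the duodenum. It had 0, 10 and 2 against 7, 5 and 0 in the jejunum and 2, 1 and 2 against 1, 2 and 0 in the ileum. A count of 0 is compatible with up to 3 counts, and most libraries lay near that floor. With the pair summed, the ileum difference was 3.49 (edgeR adjusted p = 0.0409), the mean of the regions was 1.90 (0.0139), and the jejunum showed -0.15 (0.940). With 0 to 41 counts in a library, a moderate difference of this pair was not detectable at this depth.

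**Figure D4:**
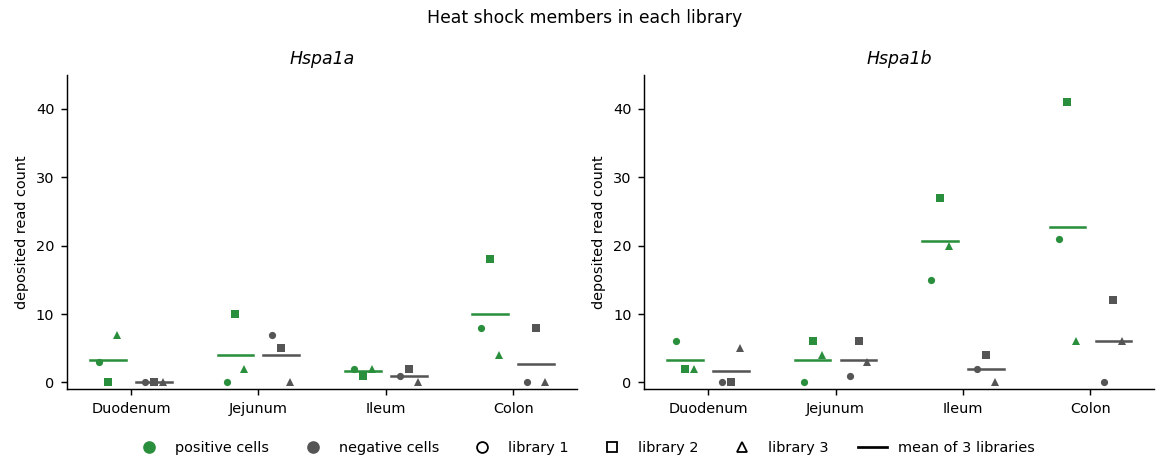
Deposited read counts of *Hspa1a* and *Hspa1b* in each library by region (green, positive; grey, negative; symbols give the library number), with the mean of 3 libraries as a line. The highest library is positive library 2 of the colon for both genes, with 18 and 41 counts, and the ileum is the one region where *Hspa1b* does not overlap.

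Whether the difference between sorts itself varied over the regions was tested as an interaction. *Junb* passed (edgeR adjusted p = 0.0117) and no other member did, against 17.5% of all genes. *Atf3* and *Jun* had an adjusted p of 0.163, *Fos* of 0.233 and *Fosb* of 0.304. For *Fos*, *Jun* and *Atf3*, a call in the jejunum and ileum and none in the duodenum and colon is therefore not shown to be a difference between regions. The *Junb* sort difference was larger in the ileum than in the duodenum by 1.43 ± 0.44 on the log2 scale (adjusted p = 0.0328, 10.5% of all genes called). It was smaller in the colon than in the jejunum (-1.38 ± 0.44, 0.0419, 9.69% called) and than in the ileum (-1.60 ± 0.44, 0.0434, 2.79% called). The excess in the jejunum over the duodenum missed the threshold (1.22 ± 0.44, 0.0592, 14.6% called). Without the jejunum pair numbered 3 the contrast of colon and jejunum missed it as well (-1.27, adjusted p = 0.0506), and the excess of *Jun* in the jejunum over the duodenum passed (1.54, 0.0432). No difference was detected between colon and duodenum (-0.16, 95% interval -1.06 to 0.73, 3.62% called) or between ileum and jejunum (0.21, -0.68 to 1.10, 0.266% called).

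Among negative cells, regions differed in *Fosb* alone of the 9 members (edgeR adjusted p = 0.00414), against 12.3% of all genes. *Fosb* was lower in the ileum, at 6.85 ± 1.08 CPM (SD), than in the duodenum, at 27.0 ± 6.22 (log2 -1.98 ± 0.49, 0.0141, 4.40% of all genes called). It was higher in the colon, at 39.2 ± 9.88 CPM, than in the ileum (2.51 ± 0.50, 0.00139, 5.24% called). Against the mean of the 3 small intestinal regions it was higher in negative cells of the colon (1.36 ± 0.36, 0.0106), where 5.74% of all genes were higher and 6.53% lower. That call was lost without negative library 1 or 3 of the colon (adjusted p 0.0548 and 0.0683). *Dusp1* came next (0.89, 0.0934) and had an unadjusted p below 0.05.

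Among positive cells, regions differed in *Fos* (edgeR adjusted p = 0.0246) and *Junb* (0.000930), while 43.3% of all genes did, a larger share than the 2 of 9 members. *Jun* (0.0555), *Ier2* (0.0626), *Fosb* (0.0629) and *Atf3* (0.0930) fell short. The count of 2 became 1 without positive library 1 or 2 of the jejunum or positive library 2 of the duodenum, 4 without positive library 1 or 2 of the ileum or negative library 2 or 3 of the jejunum, and 5 without positive library 3 of the jejunum. Positive cells of the jejunum had more *Fos* (log2 1.32 ± 0.40, 0.0107), *Jun* (1.34 ± 0.41, 0.0125), *Junb* (1.30 ± 0.31, 0.00181) and *Atf3* (1.49 ± 0.53, 0.0290) and less *Ier2* (-0.84 ± 0.29, 0.0270) than those of the duodenum, in a comparison that called 33.2% of all genes. Without the jejunum pair numbered 3 *Ier2* lost this call (-0.66, adjusted p = 0.103), and *Fosb* became lower in the ileum than in the jejunum (-1.78, 0.00237). Mean *Fos* was at 149 ± 79.5 CPM (SD) in the jejunum and 59.6 ± 3.64 in the duodenum, with positive library 3 of the jejunum within the range of the duodenum. *Junb* was higher in the ileum than in the duodenum (0.97, 0.0215, 25.5% called), lower in the colon than in the jejunum (-1.28, 0.00194, 33.9% called) and lower in the colon than in the ileum (-0.95, 0.0270), where *Fosb* was higher in the colon (1.34, 0.0454, 21.7% called). Colon against small intestine called *Junb* (-0.74 ± 0.26, 0.0374), with 15.9% of all genes higher and 10.3% lower. That call was lost in 8 of the 24 fits without 1 library (-0.85 to -0.61, adjusted p 0.0591 to 0.197).

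The share of counts on mitochondrial genes moved with the sort in the small intestine. It was 32.3% to 46.6% in positive cells of the duodenum against 64.6% to 76.4% in negative ones, 47.1% to 60.6% and 61.2% to 78.8% in the jejunum, and 41.0% to 55.4% and 64.7% to 70.9% in the ileum. In the colon the sorts overlapped, at 68.6% to 77.9% and 65.3% to 80.7%. Its part in the member differences was not tested beyond a fit without mitochondrial genes, in which the ileum had 7 members higher, the jejunum 6 and the duodenum 1, and in which *Ier2* lost its ileum call. Within groups, the mean deviation of the 8 immediate early members and that of the mitochondrial share had r = 0.29 over 24 libraries, which share their groups and depth.

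Within groups the 8 genes moved together from library to library. Over 24 libraries the deviations from group means had correlations above 0 in all 28 pairs of genes, from 0.093 to 0.914 with a median of 0.641. *Fos* with *Egr1* was the closest of these pairs, at 0.91, although over the log2 CPM of all libraries the correlation of these genes was 0.22. *Ier2*, lower in positive cells, likewise had 0.58 with *Fos* in deviations and -0.23 in log2 CPM, and 0.49 and -0.46 with *Junb*. Much of this rested on the jejunum pair numbered 3. Without it the median was 0.272, the range -0.281 to 0.784, and 24 of 28 pairs were above 0, with *Fos* and *Egr1* still at 0.78. *Ier2* then had 0.19 with *Fos* and 0.14 with *Junb* in deviations. The pairs share libraries and depth, and no test was made of them.

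Other genes of the same response were read from lists, whose counts stand against 8.88%, 18.3%, 17.9% and 9.31% of all genes higher and 8.08%, 25.6%, 20.6% and 3.80% lower in the duodenum, jejunum, ileum and colon. These counts were not tested against those shares. Of the other AP-1 factors, 5 of 8 were tested, and 1, 3, 4 and 2 rose in positive cells of duodenum, jejunum, ileum and colon, with none lower. *Mafk*, a small Maf protein, was higher in all 4 regions (log2 1.49 to 2.30), and *Fosl2*, a *Fos* relative, in the jejunum (2.07 ± 0.31, edgeR adjusted p = 4.24e-06), the ileum (2.08 ± 0.31, 5.32e-06) and the colon (1.61 ± 0.31, 0.000570). *Jund* had at most 2 counts in any library and overlaps other transcripts on the opposite strand in 48.3% of its windows. Of 35 tested other immediate early genes, 5, 12, 13 and 5 were higher and 1, 5, 3 and 2 lower in the 4 regions. Over the alternatives the higher counts ranged from 3 to 9, 8 to 15, 10 to 14 and 1 to 7. The lower counts ranged from 0 to 1, 1 to 6, 0 to 4 and 0 to 4. *Klf4*, a zinc finger factor of differentiating epithelium, was higher in all of them, from 2.01 ± 0.36 in the colon (0.000333) to 3.45 ± 0.39 in the ileum (8.94e-08). *Myc*, a factor of dividing cells, was lower in the jejunum (-3.98 ± 0.67, 1.88e-05), the ileum (-4.80 ± 0.68, 2.50e-06) and the colon (-1.87 ± 0.58, 0.0285) but not in the duodenum (-0.62 ± 0.56, 0.486). The colon call was lost under 4 alternatives (adjusted p up to 0.134). *Dusp6*, a phosphatase of ERK, was higher in the 3 small intestinal regions (2.26 to 3.28). *Nr4a3* had 0 counts in all positive and 0 to 20 in negative libraries of the jejunum, and no fold is given.

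Of 12 tested kinases and factors upstream of the immediate early promoters, 2, 5, 3 and 1 were higher and none lower in the duodenum, jejunum, ileum and colon. The share in the colon was near that of all genes (9.31%). *Mapk3*, which encodes ERK1, was higher in all 4 regions (log2 0.83 to 1.47), although over the alternatives its call was lost 7 times in the duodenum (adjusted p up to 0.0820) and 2 times in the colon (up to 0.0613). In both regions these losses include a required log2 fold of at least 1, which its main value did not meet. *Mapk8*, which encodes the *Jun* kinase JNK1, was higher in the jejunum (1.48 ± 0.28, edgeR adjusted p = 7.78e-05) and the ileum (1.27 ± 0.28, 0.000544). *Srf*, the factor of the CArG box, passed in the ileum alone, at 0.998, and lost that call under 9 alternatives (adjusted p up to 0.178). A required log2 fold of at least 1 was among them, which 0.998 could not meet.

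Most of the other heat shock genes that were called were lower in positive cells. Of 19 tested of 24, 4, 10, 10 and 2 were lower and 0, 2, 2 and 0 higher in positive cells of the duodenum, jejunum, ileum and colon, with a median log2 fold change of -0.73, -1.43, -1.33 and -0.61. Of all genes 8.08%, 25.6%, 20.6% and 3.80% were lower and 8.88%, 18.3%, 17.9% and 9.31% higher. The 4 lower in the duodenum and the 2 in the colon all lost their call when libraries were scaled by size alone, while 10 were called lower in the jejunum and 10 in the ileum. Among the lower genes, *Hspd1* and *Hspe1*, the mitochondrial chaperonin and its partner, fell to -3.22 ± 0.43 (edgeR adjusted p = 8.25e-07) and -3.47 ± 0.63 (5.37e-05) in the jejunum. *Hsph1*, a partner of Hsp70, was at -3.09 ± 0.39 (4.47e-07) there, and *Cacybp*, a cochaperone, at -2.38 ± 0.35 (3.84e-06). *Fkbp4*, a cochaperone of Hsp90, was at -2.20 ± 0.33 (4.57e-06) there, and its call in the colon (-0.95 ± 0.32, adjusted p = 0.0452) had adjusted p up to 0.205 under the alternatives that lost it. The genes called higher, named after their values were seen, were *Dnajb1* (0.87) and *Ubb* (1.10) in the jejunum and *Dnajb4* (1.08) and *Ubb* (1.17) in the ileum, and over the alternatives their number ranged from 1 to 4 and from 1 to 3. In the duodenum and in the colon 1 gene, *Bag3*, was higher at an unadjusted p below 0.05, and DESeq2 called 0 in each. Of 3 tested heat shock factor genes 2 were lower in the jejunum and the ileum, *Hsf1* at -1.47 and -1.09 and *Hsf2* at -1.70 and -1.67. When libraries were scaled by size alone 0 passed in the jejunum, against 2 for the ileum. Over the alternatives *Hsf1* in the ileum lost its call 10 times (adjusted p up to 0.146) and *Hsf2* in the jejunum 8 times (up to 0.153).

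Genes of the integrated stress response, which slows translation when amino acids or folding fail, included 2, 3, 3 and 0 of 9 higher and 0, 1, 0 and 0 lower in the 4 regions. Over the alternatives the higher count ranged from 0 to 4 in the duodenum, 1 to 3 in the jejunum and 0 to 4 in the ileum. *Ddit3*, a bZIP factor, was higher in the duodenum (log2 1.42 ± 0.46, edgeR adjusted p = 0.0302), the jejunum (1.94 ± 0.44, 0.000664) and the ileum (1.38 ± 0.44, 0.0141). *Atf4*, which drives the response, was higher in the same regions by 0.67 to 0.83. These calls were not firm over the alternatives. That of *Atf4* was lost 6 times in the duodenum and 7 times each for jejunum and ileum (adjusted p up to 0.138). Those losses include the stricter thresholds, among them a log2 fold of at least 1, which values of 0.67 to 0.83 could not meet. The call of *Ddit3* in the duodenum was lost 8 times (up to 0.119), with the stricter adjusted p of 0.01 among them. *Trib3*, a pseudokinase under *Atf4*, had 82 to 131 counts in positive and 2 to 19 in negative cells of the jejunum (3.37 ± 0.997, 0.00702). Without the jejunum pair numbered 3 it missed the threshold (2.94, adjusted p = 0.0564), as *Atf4* did there. *Asns*, asparagine synthetase, was lower in the jejunum (-1.20 ± 0.47, 0.0401), a call that was lost under 12 of the alternatives, 6 of them fits without 1 library.

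**Figure D5:**
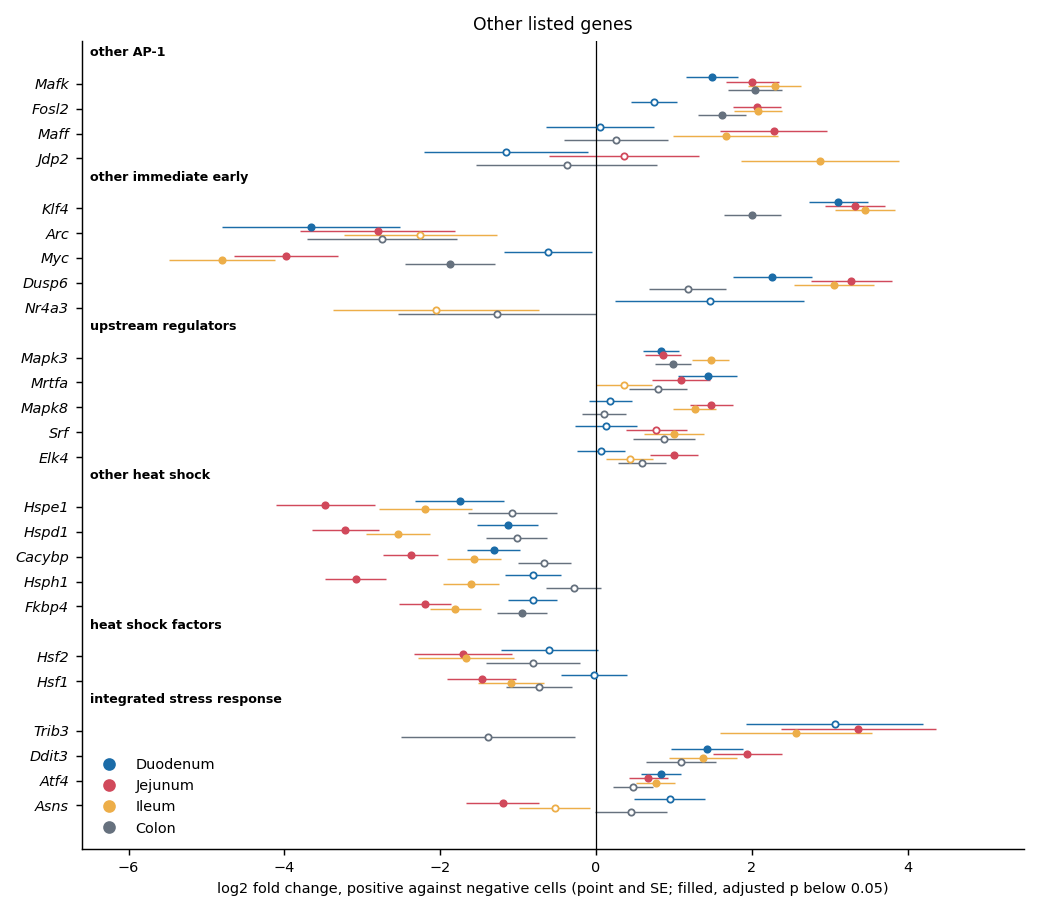
Log2 fold change of positive against negative cells (edgeR, point with SE) for the named genes of the other lists, 1 colour per region; filled points had an adjusted p below 0.05, and the jejunum value of *Nr4a3* is left out because its positive libraries had 0 counts. *Klf4*, *Mafk* and *Mapk3* are filled and right of 0 in all 4 regions, and *Hspe1*, *Hspd1*, *Cacybp*, *Hsph1* and *Fkbp4* lie left of 0 in each.

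Over all 24 libraries the gene most like the mean of the 8 immediate early members in log2 CPM was *Btg2*, an immediate early gene that slows the cell cycle, with r = 0.88. It was followed by *Malat1* (0.82), *Tnks1bp1* (0.78), *Bhlhe40* (0.76) and *Neat1* (0.75), of which *Malat1* and *Neat1* are long RNAs that stay in the nucleus. In deviations from group means these 5 had r of 0.87, 0.71, 0.57, 0.63 and 0.84. For *Hspa1b*, which alone stood for the heat shock pair in this search, *Slc44a4* came first (r = 0.77), followed by *Gm15998*, *Hpcal1*, *Clec14a* and *Gfpt1* (0.75 to 0.76). In deviations from group means these had r of 0.74, 0.60, 0.71, 0.47 and 0.31. By library size alone *Clec14a* came first (0.767 against 0.765 for *Slc44a4*), and *Hpcal1* and *Gfpt1* left the first 5. *Slc44a4* lies 25999 bases from *Hspa1b* on chromosome 17, with 5 genes wholly between them.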

How the data were processed

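Counts per gene were deposited by the authors for all 24 libraries, without normalisation, from single-end reads of 50 bases; their processing notes name CASAVA, STAR 2.5.1 and GRCm38, and the strand setting of the counting is not given in the sources used here. The 4 lines of reads outside genes (0.331% to 31.8% of all reads each) were left out. Members and lists were chosen with earlier results of these data known. Positions came from GENCODE M21 (53360 of 53465 genes matched), sequences from RefSeq. In R 4.3.3, edgeR 4.0.16 with limma 3.58.1 filtered genes (filterByExpr, minimum count 10, total 15; 15044 kept), scaled by TMM (factors 0.702 to 1.55) and fitted 1 quasi-likelihood model to the 8 groups. P-values were adjusted by Benjamini-Hochberg over the 15044 genes and called below 0.05, and the analysis code was tested on simulated data. The floor was 3 counts (0.130 to 0.402 CPM) and covers counting error only. Named genes were all members, up to 5 genes per other list with the largest mean absolute fold among those called in a region, and the 5 genes most like each member group. Alternatives were DESeq2 1.42.0, RLE factors, library size alone, mitochondrial genes left out, other filters, the i5 index as covariate, only the compared libraries, stricter thresholds and each library left out. A call lost under a stricter threshold follows from its main value, without a new fit. The paired jejunum exclusion was added after the data were seen. One gene of the other heat shock list is not reported here.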

Additional observations from a re-analysis of the deposited data

Results flagged for a closer look

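Single outlying libraries were not tested for, since each group held 3. Among the 9 tested members and the 25 genes of other lists named by the rule, 5 had a difference between positive and negative cells that varied over the regions by the interaction test (edgeR, adjusted p), a share no higher than the 17.5% of all genes. *Junb* was the one member, at 0.0117. Among the others were *Hsph1* at 0.00148, *Myc* at 0.00219, *Hspd1* at 0.00904 and *Mapk8* at 0.0138. *Ubb*, named after its values were seen, was at 0.0153. The fitted difference of *Junb* and *Mapk8* was larger in the jejunum and ileum than in the duodenum and colon, although for *Junb* the jejunum and duodenum were not shown to differ (adjusted p = 0.0592). Those of *Hsph1*, *Hspd1* and *Myc* were further below 0 there. The makeup of the positive cells differed between regions as well, and its part was not tested.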

How the results depend on the processing

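No paired analysis was run, because the labels name no mouse and give the libraries no replicate number. A fit blocked by library number was not run either, so its effect on the calls was not tested. In the jejunum each positive library was above the negative library of the same number for *Fos*, *Fosb*, *Jun*, *Junb*, *Atf3* and *Dusp1*. For *Egr1* and *Ier2* each was below it. The share of all genes with such an order was not counted, and the labels do not show that these numbers pair libraries. The order did not hold for every member in the other regions, as for *Fosb* in the duodenum and the colon. Higher calls of *Fos*, *Jun*, *Junb* and *Atf3* in the jejunum, of *Fos*, *Junb* and *Atf3* in the ileum and of *Fos*, *Jun*, *Junb*, *Atf3* and *Dusp1* on the mean of the regions held under the alternatives run, with adjusted p up to 0.0448, except that *Jun* (0.73) and *Dusp1* (0.93) on the mean fell under a required log2 fold of at least 1. Of 1644 values of members under alternatives 1478 kept their direction and their side of the threshold, 66 lost a call, 67 gained one and 33 changed sign. None of the 33 was of a result with a call.

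For members higher in the duodenum, where 0 were called, DESeq2, RLE factors, mitochondrial genes left out, at least 10 counts in every library and the i5 covariate gave 1 each, no filter and the jejunum pair left out 2, and library size alone and only the compared libraries 3. In the colon DESeq2, no filter, the i5 covariate and only the compared libraries gave 1 and the jejunum pair left out 2. In the ileum the higher count of 6 was 3 at an adjusted p of 0.01, and the lower count of 1 was 0 without mitochondrial genes, with no filter, at 0.01 and at a log2 fold of at least 1. On the mean of the regions the lower count of 1 was 0 by library size alone, with no filter, at 0.01 and at a fold of at least 1, which also left 4 of 7 higher. The interaction count of 1 was 4 with no filter and 0 at 0.01. Among negative cells the count of 1 was 2 by library size alone and 3 with no filter. Among positive cells the count of 2 was 4 by DESeq2, 6 with no filter and the i5 covariate, 5 without the jejunum pair and 1 at 0.01. Colon against small intestine in negative cells went from 1 to 2 by DESeq2, RLE factors, without mitochondrial genes, with no filter, at least 10 counts and the i5 covariate, and to 0 at 0.01. In positive cells it went from 1 to 2 with the i5 covariate and to 0 at least 10 counts, at 0.01 and at a fold of at least 1. The cause was not tested.

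With each library left out in turn, the higher counts ranged from 0 to 1 in the duodenum, 4 to 6 in the jejunum, 3 to 7 in the ileum (3 without negative library 3), 0 to 1 in the colon and 6 to 8 on the mean. The lower counts ranged from 0 to 1 in the ileum and on the mean, the interaction count from 1 to 2, the counts among positive cells from 1 to 5, and the colon against small intestine counts from 0 to 2 in negative and 0 to 1 in positive cells.

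Values that changed sign were as follows. *Hspa1b* in the jejunum (-0.046) was 0.076 by DESeq2, 0.073 with RLE factors, 0.21 by library size alone, 0.11 without mitochondrial genes, 0.058 with no filter and -0.47 to 0.64 with 1 library left out. *Fosb* in the colon (0.016) was -0.088 by DESeq2, -0.087 with RLE factors, -0.080 by library size alone, -0.073 without mitochondrial genes, -0.17 with at least 10 counts, -0.12 with only the compared libraries and -0.54 to 0.27 with 1 library left out. In the duodenum library size alone gave 0.36 for *Fosb*, 0.33 for *Jun* and 0.10 for *Egr1*, and leaving out 1 library gave -0.30 to 0.034 for *Fosb*, -0.30 to 0.045 for *Jun*, -0.54 to 0.020 for *Egr1* and -0.0069 to 0.32 for *Ier2*. *Egr1* was 0.023 with the i5 covariate in the colon, and leaving out 1 library gave -0.30 to 0.29 there and -0.55 to 0.015 in the ileum.

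Scaling by library size alone moved the median log2 fold change of all genes from -0.16 to 0.27 in the duodenum, from -0.28 to 0.02 in the jejunum, from -0.21 to -0.05 on the mean and from 0.15 to -0.23 for colon against small intestine in positive cells. The share of calls that were higher went from 52.4% to 86.6% in the duodenum, from 41.7% to 53.1% in the jejunum and from 60.7% to 35.6% in the last comparison. It went from 46.8% to 59.5% with RLE factors, 60.5% without mitochondrial genes and 63.0% with no filter for colon against small intestine in negative cells, and from 71.0% to 57.1% by DESeq2, 56.7% with only the compared libraries and 54.4% with at least 10 counts in the colon. Of 2083 values of the named genes of other lists 1912 kept their call, 171 lost it and 0 changed sign.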
